A study of Mus musculus with 6 samples.

Results

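The interferon regulatory factors (IRFs) examined here are 6 genes, Irf1, Irf2, Irf3, Irf4, Irf5 and Irf8, which were read by symbol from a transcript table of mouse CD4 T cells and summed over their transcripts. They are 6 of the 24011 genes and 10 of the 32547 transcripts of the table, and the rule uses no expression value. Irf7 and Irf9, which the rule leaves out, are given only for comparison.

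IRFs are transcription factors that share a DNA-binding domain and recognise repeats of the GAAA core found in interferon-stimulated response elements. Irf1 is induced by interferon gamma and activates antigen presentation genes, and Irf2 binds the same elements and is best known as its antagonist. Irf3 and Irf5 are made in a latent form and are activated by phosphorylation downstream of nucleic acid sensors and Toll-like receptors. Irf4 and Irf8 bind DNA weakly alone and act with partners such as PU.1 and the BATF-JUN dimers. In T cells Irf4 is induced by antigen receptor signalling, and in regulatory T cells (Tregs) it is needed for the effector programme.

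The libraries came from C57BL/6 mice that were either YAP cKO (YAP flox/flox, CD4-Cre+) or wild type (WT), with 1 library for each of 6 groups. YAP is the transcriptional co-activator of the Hippo pathway, and because the CD4 promoter drives Cre, the allele is recombined in T cells generally and not in Tregs alone. The groups were cKO and WT stimulated natural Tregs (nTregs), cKO and WT freshly sorted nTregs, and cKO and WT naive CD4 T cells, all sorted from lymph nodes and spleens. Naive cells were sorted as CD4+ CD62L+ CD25- and nTregs as CD4+ CD25 high with either CD62L state. For stimulation, anti-CD3 was bound to the plate and anti-CD28 added in solution (2 µg/ml for each), together with 100 U/ml of IL-2. The labels give both 24 h and 48 h for its length. Neither the age of the mice nor the number behind a library is stated.

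RNA levels are in FPKM (fragments per kilobase, adjusted for mapped fragments and scaled by the authors across libraries), so levels of different genes are compared here per length. Between 10210 and 10893 genes reached 1 FPKM in a library. Genes listed at 0 numbered 4872 in cKO and 4122 in WT stimulated nTregs, and 9110 to 10154 in the fresh and naive libraries. A low value in stimulated nTregs beside 0 elsewhere was thus common. Library FPKM sums were 595524 in cKO and 534274 in WT stimulated nTregs, 843887 and 837179 in cKO and WT fresh nTregs, and 962865 and 968967 in cKO and WT naive cells. From the steps between the lowest values, 1 fragment on 1 kb was worth 0.109 to 0.141 FPKM, and counting intervals (95%, exact binomial) rest on fragments estimated that way. Such intervals hold only the error of counting, because duplicates made by PCR carry no mark. Foxp3, the Treg lineage factor, was 57.8 and 56.9 FPKM in cKO and WT stimulated nTregs, 45.9 and 46.6 FPKM in cKO and WT fresh nTregs, and 3.30 and 2.98 FPKM in cKO and WT naive cells. Yap1 gave no check of the genotype labels: it was 0.235 FPKM in cKO and 0.169 FPKM in WT stimulated nTregs and listed at 0 in the 4 other libraries. The cKO columns carry an abbreviation that was read as YAP cKO by elimination, so every genotype direction rests on that reading. In bulk RNA, fewer cells of a type and less RNA per cell cannot be told apart.

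The 6 genes lie on 5 mouse chromosomes, all on the forward strand of GRCm38 (mm10). Irf1 is on chromosome 11 (53770014 to 53778374), Irf3 on chromosome 7 (44997648 to 45002848) and Irf4 on chromosome 13 (30749226 to 30766976). Irf5 is on chromosome 6 (29526625 to 29541871), and Irf2 (46739732 to 46847458) and Irf8 (120736358 to 120756694) share chromosome 8. Promoter windows of 300 bases, 250 before and 50 from the RefSeq start (GRCm38.p6), were available for all 6. Irf1 and Irf8 each had a second window at another start, which is not printed. The 4 shown belong to the genes whose RNA differed most between populations. Capitals mark the letters of 3 motifs: the gamma-activated site (GAS, TTCNNNGAA), a kappaB site (GGG and CC around 5 bases with a central T), and the IRF repeat (GAAA followed by GAAA after any 2 bases).
Irf8, chr8:120736108-120736407: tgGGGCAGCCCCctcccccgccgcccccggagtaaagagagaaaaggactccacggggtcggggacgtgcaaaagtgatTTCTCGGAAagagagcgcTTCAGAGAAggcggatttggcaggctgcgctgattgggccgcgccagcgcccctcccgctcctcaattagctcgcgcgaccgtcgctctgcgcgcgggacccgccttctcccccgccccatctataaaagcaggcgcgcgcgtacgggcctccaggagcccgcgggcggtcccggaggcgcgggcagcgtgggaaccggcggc
Irf4, chr13:30748983-30749282: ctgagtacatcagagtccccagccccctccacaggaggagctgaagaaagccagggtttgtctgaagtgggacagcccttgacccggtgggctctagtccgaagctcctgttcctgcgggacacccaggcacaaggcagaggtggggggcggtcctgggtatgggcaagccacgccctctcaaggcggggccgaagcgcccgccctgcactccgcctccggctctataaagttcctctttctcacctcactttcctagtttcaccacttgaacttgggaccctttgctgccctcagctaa
Irf1, chr11:53769764-53770063: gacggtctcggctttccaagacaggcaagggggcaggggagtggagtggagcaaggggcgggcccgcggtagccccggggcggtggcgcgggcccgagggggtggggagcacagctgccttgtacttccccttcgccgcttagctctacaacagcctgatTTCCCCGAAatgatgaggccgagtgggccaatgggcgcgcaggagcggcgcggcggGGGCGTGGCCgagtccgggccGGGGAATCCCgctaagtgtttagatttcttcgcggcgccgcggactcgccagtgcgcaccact
Irf5, chr6:29526375-29526674: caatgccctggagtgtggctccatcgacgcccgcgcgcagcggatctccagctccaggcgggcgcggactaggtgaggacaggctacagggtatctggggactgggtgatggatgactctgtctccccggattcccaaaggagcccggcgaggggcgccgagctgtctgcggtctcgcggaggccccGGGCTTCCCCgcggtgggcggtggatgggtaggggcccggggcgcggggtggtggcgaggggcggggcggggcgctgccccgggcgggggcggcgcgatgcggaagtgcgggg

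Irf8 held 2 GAS motifs, at -171 and -153 from the start, and a kappaB motif at -248. Irf1 held 1 GAS motif at -90 and kappaB motifs at -34 and -13. Irf5 held a kappaB motif at -63, and Irf4 held none of the motifs searched, which also included the AP-1 letters TGANTCA. Of the promoters not printed, Irf2 held a GAS motif at -224, an IRF repeat at -241 and a kappaB motif at -17, and Irf3 held none. The second windows of Irf1 (chr11:53770223-53770522) and Irf8 (chr8:120738389-120738688) also held none. Both strands were searched, and none of these matches overlapped another. Among 32851 mouse promoters of this length, 8.30% held the GAS letters, 18.4% the kappaB letters, 3.44% the IRF repeat and 7.81% the AP-1 letters. A match describes the letters in these windows and is not a measured binding site.

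Irf1 was the most abundant member in all 6 libraries, and the make-up of the family differed by population. Irf1 made up 45.1% of the summed FPKM of the 6 genes in cKO and 43.1% in WT stimulated nTregs, 72.2% and 71.3% in cKO and WT fresh nTregs, and 82.7% and 83.0% in cKO and WT naive cells. Irf4 and Irf8 together filled much of the difference. Irf4 held 20.5% in cKO and 21.1% in WT stimulated nTregs, 8.83% and 7.94% in cKO and WT fresh nTregs, and 3.89% and 3.22% in cKO and WT naive cells. Irf8 held 19.2% in cKO and 15.1% in WT stimulated nTregs, 2.82% and 2.28% in cKO and WT fresh nTregs, and 0.732% and 0.593% in cKO and WT naive cells. The sum itself moved less, at 389.0 and 284.9 FPKM in cKO and WT stimulated nTregs, 368.4 and 332.4 FPKM in cKO and WT fresh nTregs, and 405.4 and 337.0 FPKM in cKO and WT naive cells.

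**Figure D1:**
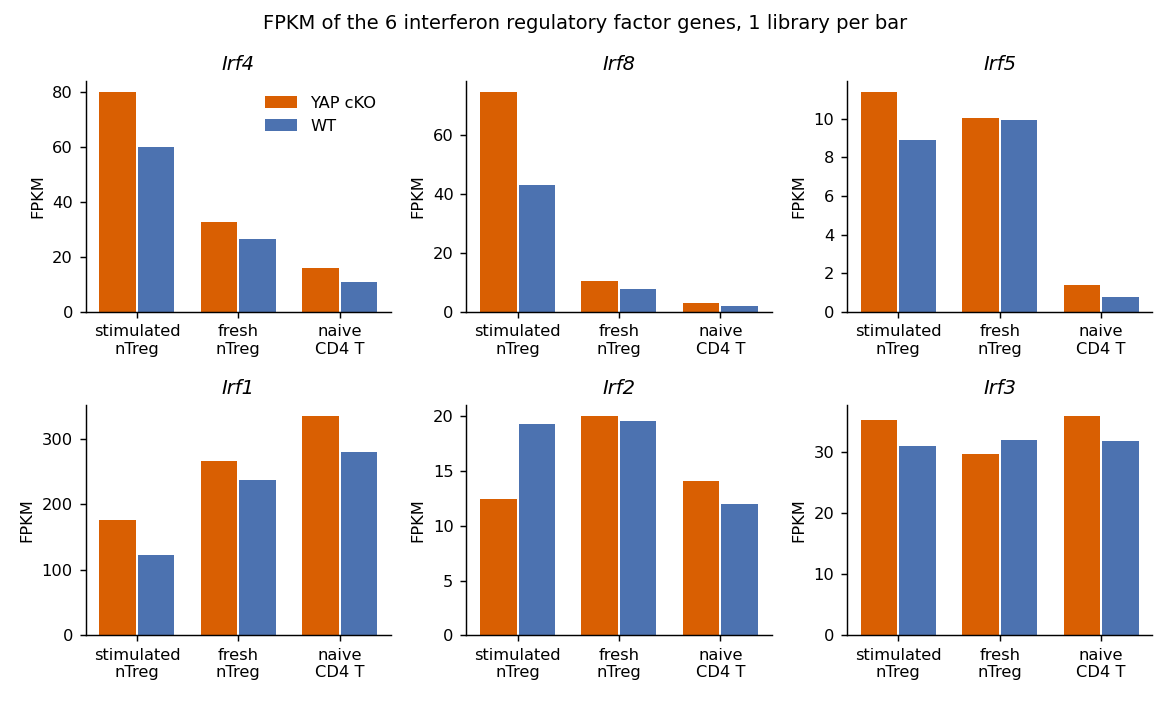
FPKM (linear axis from 0) of the 6 IRF genes in each library, with cKO left of WT and populations along the axis; each bar is 1 library, so there is no error bar. Irf4 and Irf8 stand highest in both stimulated libraries, Irf5 is at 8.89 to 11.4 FPKM in the nTreg libraries and under 1.5 FPKM in naive cells, and Irf1 is lowest in stimulated nTregs.

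Stimulated and fresh nTregs were compared first, to describe the family in cells cultured with antigen receptor, CD28 and IL-2 signals. No nTregs were cultured without these signals, so the signals and the time in culture cannot be told apart. Irf4 and Irf8, the partner-dependent lymphoid members, rose, Irf1 fell, and Irf2, Irf3 and Irf5 did not pass the test. limma was fitted across 11224 genes with population and genotype as terms, and a gene was called at a Benjamini-Hochberg adjusted p under 0.05. Of all genes tested, 22.5% were called higher and 27.3% lower in stimulated nTregs, against 2 and 1 of the 6 members, so calls as such were common in this comparison. The median difference was 0.056 over the members and -0.046 over all genes on the log2(FPKM + 1) scale. With 1 library per group, these p-values measure how unevenly a difference appears across genotypes and populations, not the spread between mice.

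Irf8 had the largest difference of the family between stimulated and fresh nTregs. It is known for myeloid and B cell development, and its RNA was 74.7 FPKM in cKO and 43.1 FPKM in WT stimulated nTregs, 10.4 and 7.59 FPKM in cKO and WT fresh nTregs, and 2.97 and 2.00 FPKM in cKO and WT naive cells. Both stimulated libraries lay above every other library. The difference between stimulated and fresh nTregs was 2.55 ± 0.13 on the log2 scale (SE, limma adjusted p = 0.000109), the 37th largest increase of the genes tested. Within genotypes it was 2.73 in cKO and 2.36 in WT. Stimulated libraries held about 1937 fragments of Irf8 in cKO and 871 in WT, so counting error is small beside the difference.

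Irf4 was 79.9 FPKM in cKO and 60.0 FPKM in WT stimulated nTregs, 32.5 and 26.4 FPKM in cKO and WT fresh nTregs, and 15.8 and 10.8 FPKM in cKO and WT naive cells. Its libraries kept the same order as those of Irf8, with no overlap between populations. The stimulated minus fresh difference was 1.21 ± 0.088 (SE, limma adjusted p = 0.00029), at 1.27 in cKO and 1.16 in WT. Irf4 exceeded Irf8 in every library, by a ratio of 1.07 in cKO and 1.39 in WT stimulated nTregs, 3.13 and 3.48 in cKO and WT fresh nTregs, and 5.31 and 5.43 in cKO and WT naive cells. Irf4 and Irf8 were the 2 members ordered stimulated above fresh above naive in both genotypes, an order seen in 17.7% of all genes tested.

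Irf1 was 175.5 FPKM in cKO and 122.7 FPKM in WT stimulated nTregs, 265.9 and 237.2 FPKM in cKO and WT fresh nTregs, and 335.4 and 279.7 FPKM in cKO and WT naive cells. The order of its populations was the reverse of that for Irf4 and Irf8, with both stimulated libraries below the others. It fell by 0.77 ± 0.10 on the log2 scale in stimulated relative to fresh nTregs (SE, limma adjusted p = 0.0020), and the within-genotype differences were -0.60 in cKO and -0.94 in WT. The decrease depends on scaling. With median-of-ratios scaling, where each library is divided by the median ratio of its genes to their mean over libraries, it was -0.70 (limma adjusted p = 0.00201). With library FPKM sums set equal, it was -0.20 (limma adjusted p = 0.0768). Equal sums moved the median of all genes from -0.046 to 0.47, and median-of-ratios scaling moved it to 0.016. Relative to the other genes Irf1 was thus lower under each scaling. Even in the stimulated libraries Irf1 stood above 97.1% of the detected genes (at least 1 FPKM in the library) in cKO and 96.0% in WT.

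Irf2, Irf3 and Irf5 did not pass the test between stimulated and fresh nTregs. Irf2 was 12.4 FPKM in cKO and 19.3 FPKM in WT stimulated nTregs, 20.0 and 19.5 FPKM in cKO and WT fresh nTregs, and 14.1 and 12.0 FPKM in cKO and WT naive cells. Its low stimulated value was in the cKO library alone, and the difference was -0.33 ± 0.19 (SE, limma adjusted p = 0.20), at -0.65 in cKO and -0.018 in WT. Without the WT stimulated library it was -0.70 (limma adjusted p = 0.00421) and without the cKO stimulated library 0.028 (0.861), so 1 library decides it. Irf3 was 35.1 FPKM in cKO and 30.9 FPKM in WT stimulated nTregs, 29.6 and 31.8 FPKM in cKO and WT fresh nTregs, and 35.9 and 31.8 FPKM in cKO and WT naive cells. It varied least of the 6, and its difference was 0.10 ± 0.10 (SE, limma adjusted p = 0.441). Irf5 was 11.4 FPKM in cKO and 8.89 FPKM in WT stimulated nTregs and 10.0 and 9.94 FPKM in cKO and WT fresh nTregs, a difference of 0.012 ± 0.14 (SE, limma adjusted p = 0.952). The ranges of the stimulated and fresh libraries overlapped for Irf3 and Irf5, and for Irf2 both stimulated libraries were below both fresh ones, the WT one by little. With equal FPKM sums Irf3 and Irf5 came out higher in stimulated nTregs, at 0.66 and 0.54 (limma adjusted p = 0.00131 and 0.0143), where the median of all genes was 0.47.

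**Figure D2:**
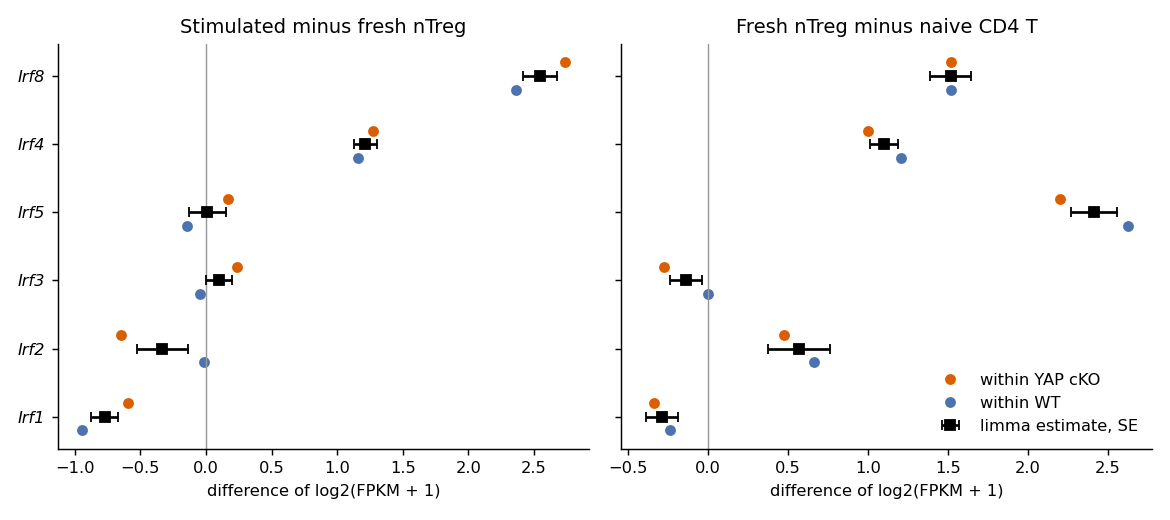
Differences of log2(FPKM + 1) for each IRF gene, stimulated minus fresh nTregs on the left and fresh nTregs minus naive CD4 T cells on the right; squares are limma estimates with SE, and circles the difference within cKO or WT (1 library against 1). Irf8 and Irf4 lie right of 0 in both panels, Irf5 in the right panel at 2.41, and Irf1 left of 0 in both.

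Fresh nTregs and naive CD4 T cells were compared next, to describe the family in the unstimulated regulatory cell. Irf5, Irf8 and Irf4 were higher in fresh nTregs, and no member was called lower. Over all genes, 16.5% were called higher and 14.7% lower in fresh nTregs, against 3 and 0 of the 6 members. The median difference was 0.84 over the members and -0.021 over all genes. This comparison uses the same fresh libraries as the one above, so the differences from the 2 comparisons are not independent.

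Irf5, which acts downstream of Toll-like receptors and MyD88 in myeloid and B cells, had the largest difference of the family here. It was 10.0 FPKM in cKO and 9.94 FPKM in WT fresh nTregs, against 1.40 and 0.769 FPKM in cKO and WT naive cells. All 4 nTreg libraries lay above both naive libraries, and counting intervals did not separate the nTreg libraries that were next to each other in level. The fresh minus naive difference was 2.41 ± 0.14 (SE, limma adjusted p = 0.000188). The ratio of FPKM was 7.16 in cKO (counting interval 4.73 to 11.1) and 12.9 in WT (7.51 to 26.4). The naive values stand on about 26.8 fragments in cKO and 12.5 in WT, so the size of the ratio is loosely known.

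Irf8 was higher by 1.52 ± 0.13 (SE, limma adjusted p = 0.000629), with a difference of 1.52 within each genotype. Irf4 was higher by 1.10 ± 0.088 (SE, limma adjusted p = 0.000492), at 1.00 in cKO and 1.21 in WT. Both fresh libraries exceeded both naive libraries for each gene. Irf2 had a difference of 0.57 ± 0.19 (SE, limma adjusted p = 0.0724) and Irf1 of -0.29 ± 0.10 (0.0833). Both of these passed without the cKO stimulated library (limma adjusted p = 0.00286 for Irf2 and 0.00649 for Irf1) and without the WT stimulated library (0.0033 and 0.00693), with the estimates unchanged and the spread taken from the other libraries. Irf2 also passed without the cKO naive library (0.82, limma adjusted p = 0.0466) and with equal FPKM sums (0.75, 0.0407). Irf3 had a difference of -0.13 ± 0.10 (SE, limma adjusted p = 0.348), at -0.27 in cKO and 0.0027 in WT.

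The comparison of YAP cKO with WT is the one for which the mice were made. None of the 6 genes passed the limma test across the 3 populations, where 0.374% of all genes (42 of 11224) were called in either direction. At an unadjusted p under 0.05, 3 of the 6 members (Irf1, Irf4 and Irf8) were higher in cKO, and 7.64% of all genes were. Irf8 had a difference of 0.53 ± 0.11 (SE, limma adjusted p = 0.159), Irf4 of 0.40 ± 0.072 (0.128) and Irf1 of 0.31 ± 0.084 (0.261). Irf5 had 0.26 ± 0.12 (SE, limma adjusted p = 0.452), Irf3 0.082 ± 0.082 (0.722) and Irf2 -0.12 ± 0.16 (0.804). The median over the members was 0.29, against 0.013 over all genes. Irf1, Irf4, Irf5 and Irf8 had the higher value in cKO in all 3 populations, which 19.6% of all genes did.

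Within a population there is 1 library of each genotype and no test. No member was 2-fold apart in any population on the log2(FPKM + 1) scale, where 1.9% of detected genes were in stimulated nTregs, 1.03% in fresh nTregs and 1.2% in naive cells. Irf8 in stimulated nTregs came closest on that scale, at 74.7 FPKM in cKO and 43.1 FPKM in WT, a ratio of 1.74 (counting interval 1.60 to 1.88). In fresh nTregs the Irf8 ratio was 1.37 (1.13 to 1.65) and in naive cells 1.49 (1.00 to 2.22). Irf4 had ratios of 1.33 (1.26 to 1.41) in stimulated nTregs, 1.23 (1.14 to 1.34) in fresh nTregs and 1.46 (1.28 to 1.65) in naive cells. Irf1 had ratios of 1.43 (1.35 to 1.51) in stimulated nTregs, 1.12 (1.08 to 1.17) in fresh nTregs and 1.20 (1.15 to 1.25) in naive cells. For these 3 genes the counting interval lay above 1 in every population, and in naive cells that of Irf8 only barely.

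Irf2 was lower in cKO than in WT stimulated nTregs, with a ratio of 0.642 (counting interval 0.548 to 0.756). On the log2(FPKM + 1) scale this difference was -0.60, and 2.78% of detected genes lay below it. In fresh nTregs the ratio was 1.02 (0.895 to 1.17) and in naive cells 1.17 (0.982 to 1.40), so counting error did not separate the genotypes in those 2 populations. The ratio of Irf1 to its antagonist Irf2 was 14.2 in cKO and 6.36 in WT stimulated nTregs, 13.3 and 12.1 in cKO and WT fresh nTregs, and 23.8 and 23.4 in cKO and WT naive cells. The gap in that ratio was largest in the stimulated pair, and it was not tested because each group is 1 library. Irf5 had ratios of 1.28 (1.04 to 1.60) in stimulated nTregs, 1.01 (0.823 to 1.24) in fresh nTregs and 1.82 (0.933 to 4.13) in naive cells. Irf3 ratios were 1.14, 0.929 and 1.13 in stimulated nTregs, fresh nTregs and naive cells. With equal FPKM sums the stimulated differences of Irf8, Irf1 and Irf4 were 0.63, 0.36 and 0.25 in place of 0.78, 0.51 and 0.41, all still higher in cKO.

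**Figure D3:**
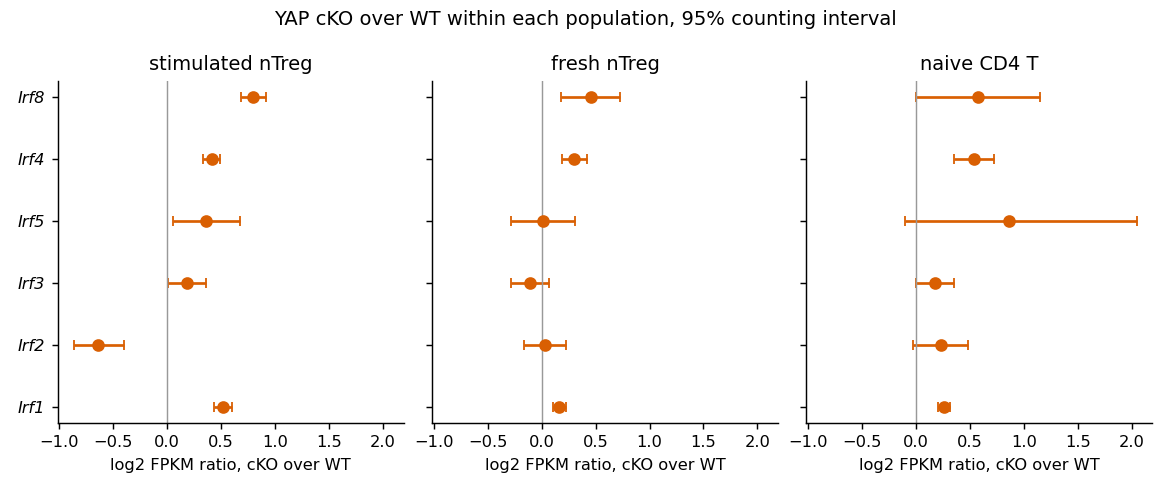
log2 ratio of FPKM, cKO over WT, for each IRF gene in stimulated nTregs, fresh nTregs and naive CD4 T cells; points are 1 library over 1 library and bars the 95% counting interval, which leaves out variation between mice. Irf8, Irf4 and Irf1 lie above 0 in all 3 panels, Irf2 lies at -0.64 in stimulated nTregs and near 0 in fresh nTregs, and the naive interval of Irf5 is the widest.

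Transcript composition was given by 1 transcript for Irf2, Irf4 and Irf8 and by several for the rest. Irf1 came almost wholly from NM_008390, with 90.7% to 94.9% of its FPKM in each library. For Irf3 the noncoding transcript NR_045611 held 13.7% in cKO and 22.5% in WT stimulated nTregs, 29.0% and 22.3% in cKO and WT fresh nTregs, and 22.3% and 27.6% in cKO and WT naive cells, an order that differed between populations. For Irf5 the transcript NM_001252382 had 14.8% of the FPKM in cKO stimulated nTregs and 29.0% in cKO naive cells, and at most 0.122% in the 4 other libraries. These shares rest on about 34.3 and 7.91 estimated fragments, and how reads were split between the 2 overlapping Irf5 transcripts is not recorded in the table. With the most abundant transcript of each gene alone, the Irf5 genotype difference in naive cells was 0.17 instead of 0.44, while its fresh minus naive difference was 2.55 instead of 2.41.

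Neighbouring genes could share reads with Irf3 and Irf5 if strand was not used in counting, which the sources used here do not give. Bcl2l12 overlaps 1065 nt of Irf3 on the opposite strand and was 6.78 and 5.65 FPKM in cKO and WT stimulated nTregs, 5.99 and 7.17 FPKM in cKO and WT fresh nTregs, and 8.75 and 7.89 FPKM in cKO and WT naive cells. Tnpo3 overlaps 1045 nt at the end of Irf5, and was 32.8 and 31.0 FPKM in cKO and WT stimulated nTregs, 33.0 and 31.1 FPKM in cKO and WT fresh nTregs, and 35.7 and 38.7 FPKM in cKO and WT naive cells. The part of shared reads in the Irf3 and Irf5 values was not tested. Gm16675 starts 217 nt from Irf2 on the opposite strand without overlap and lay between 2.45 and 4.63 FPKM. No value was used here for genes annotated over Irf1, Irf2 and Irf8.

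Genes that work with the family were counted by role, each list chosen with earlier results of these data known. As deposited, 22.5% of all genes were called higher and 27.3% lower in stimulated than in fresh nTregs. In fresh nTregs relative to naive cells 16.5% were higher and 14.7% lower. With equal FPKM sums, 59.1% of all genes were called higher and 8.99% lower in stimulated than in fresh nTregs. In fresh nTregs relative to naive cells 24.3% were then higher and 5.86% lower. The counts of each list are to be read against the shares under the same scaling. No tested DNA-binding partner of IRF4 and IRF8 was called higher in stimulated than in fresh nTregs. Of 9 partners, 5 were tested and all 5 were lower in stimulated than in fresh nTregs, with a median of -2.0, though with equal FPKM sums Tcf3 turned to 0.17 and was not called. In fresh nTregs relative to naive cells 1 of the 5 (Batf) was higher under both scalings. Junb was 82.5 and 57.9 FPKM in cKO and WT stimulated nTregs, against 1164 and 1254 FPKM in cKO and WT fresh nTregs, a difference of -4.11 ± 0.15 (SE, limma adjusted p = 4.89e-05). Jund fell by 2.21 and Jun by 2.00. Batf, the best known partner of IRF4 in T cells, was 47.4 and 34.9 FPKM in cKO and WT stimulated nTregs, 82.6 and 63.2 FPKM in cKO and WT fresh nTregs, and 45.9 and 38.2 FPKM in cKO and WT naive cells. It fell by 0.81 in stimulated relative to fresh nTregs and was higher by 0.77 in fresh nTregs than in naive cells (limma adjusted p = 0.000725 and 0.0014). Spi1 and Spib, which encode PU.1 and its relative, were at most 0.307 FPKM, and with Batf2 and Batf3 they stayed below the minimum for testing.

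Among 13 genes of antigen receptor and NF-kappaB signalling upstream of Irf4, 2 were higher and 10 lower in stimulated nTregs, with a median of -0.68, and with equal FPKM sums the counts were 3 and 5. Malt1, the paracaspase, rose by 1.04 and Nfkb1 by 0.34. Bcl10 fell by 1.24 and Rel, which encodes a subunit known to act on the Irf4 gene, by 1.15. In fresh nTregs relative to naive cells, 3 of the 13 were higher and 2 lower, against 7 and 2 with equal FPKM sums: Nfatc1 rose by 1.09 and Rel by 1.00. Of 14 genes of effector Tregs, 14 were higher in fresh nTregs than in naive cells, with a median of 3.52, where 16.5% of all genes were higher. These populations were sorted as Tregs and naive cells, so this count cannot be read as a result about IRF4. Il10 rose by 5.02 and Klrg1 by 5.02 there. In stimulated relative to fresh nTregs the same list split into 5 higher and 6 lower (7 and 4 with equal FPKM sums), with Ccr8 up by 1.15 and Tnfrsf9 by 0.91, and Areg and Klrg1 with differences of -3.08 and -2.68.

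Around Irf1, the interferon gamma pathway had 1 of 10 tested genes higher and 5 lower in stimulated nTregs, where 22.5% and 27.3% of all genes were. With equal FPKM sums the counts were 5 and 3. Socs1, the feedback inhibitor, rose by 1.17, and Ifng and Socs3 had differences of -1.47 and -1.46. Ifng, the ligand gene, was 15.6 FPKM in cKO and 4.02 FPKM in WT stimulated nTregs, 33.2 and 17.7 FPKM in cKO and WT fresh nTregs, and 0.954 and 1.5 FPKM in cKO and WT naive cells. It was higher in cKO in both nTreg states and lower in naive cells, and the genotype difference across populations was 0.75 ± 0.36 (SE, limma adjusted p = 0.477). In fresh nTregs relative to naive cells 3 genes of the pathway were higher and 2 lower, against 5 and 1 with equal FPKM sums, and the receptor chain genes Ifngr1 and Ifngr2 had differences of 0.81 and -0.97. A list of IRF1-dependent genes held antigen presentation genes and Gbp2, which encodes a guanylate-binding protein. Of its 11 tested genes, 1 (Gbp2) was higher and 4 were lower in stimulated nTregs, with a median of -0.24. With equal FPKM sums 6 were higher and 0 lower. Gbp2 rose by 2.40 in stimulated nTregs while Irf1 fell, and Psmb10 and Nlrc5 had differences of -0.61 and -0.59 (-0.049 and -0.019 with equal FPKM sums). In fresh nTregs relative to naive cells 0 of the 11 passed the limma test, with 1 at an unadjusted p under 0.05, and with equal FPKM sums 1 did (Nlrc5, 0.41, limma adjusted p = 0.0151). All 3 genes of the IRF2-binding proteins, which act as co-repressors, were lower in stimulated nTregs, led by Irf2bpl at -1.16 and Irf2bp2 at -1.11, except that with equal FPKM sums Irf2bp1 was 0.10 and not called. In fresh nTregs relative to naive cells Irf2bp1 was lower by 0.43, and with equal FPKM sums Irf2bp2 alone passed, at 0.40.

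The sensors and kinases that act through IRF3 had 1 of 14 tested genes higher and 6 lower in stimulated nTregs, and with equal FPKM sums 8 of 15 tested were higher and 3 lower. Ikbke, one of the kinases that phosphorylate IRF3, fell by 1.32 and the RNA helicase gene Dhx58 by 1.32, while the other kinase gene, Tbk1, had a difference of -0.19 that did not pass (limma adjusted p = 0.116). In fresh nTregs relative to naive cells 2 genes were higher and 2 lower (6 and 1 with equal FPKM sums): Tank rose by 1.12 and Sting1 by 0.59, and Ikbke fell by 0.63. For IRF5, 9 receptors, adaptors and kinases were tested, and 3 were higher and 2 lower in fresh nTregs than in naive cells (5 and 0 with equal FPKM sums). Tlr7, an RNA receptor upstream of IRF5, was 11.7 and 10.4 FPKM in cKO and WT fresh nTregs, against 3.91 and 2.35 FPKM in cKO and WT naive cells, a difference of 1.57 ± 0.14 (SE, limma adjusted p = 0.000861). Unc93b1, which carries the endosomal receptors, rose by 1.45 in the same comparison, so 2 genes of the receptor arm were higher where Irf5 was. Myd88, the adaptor, fell by 0.36 there and Ikbkb, an IRF5 kinase, by 0.43, and neither was called with equal FPKM sums. Tlr8 and Tlr9 were at most 0.252 FPKM. In stimulated nTregs 1 of the 9 was higher and 5 were lower than in fresh nTregs, against 4 and 1 with equal FPKM sums, and Traf6 rose by 1.92. Tlr7 fell by 0.63 there, and with equal FPKM sums it was -0.11 and not called.

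Between genotypes 0 of the 79 tested genes of these 8 lists passed the limma test, and 14 were at an unadjusted p under 0.05, as were 12% of all genes in either direction. Of these 14, 7 were among the 11 tested genes of the IRF1-dependent list, all 7 higher in cKO (7.64% of all genes were). That list was chosen with earlier results known and its genes share the same 6 libraries. The 7 are thus not independent counts, and the list was not tested as a set. Psmb8 was 294 and 192 FPKM in cKO and WT stimulated nTregs, but 245 and 238 FPKM in cKO and WT fresh nTregs. Gbp2 was 78.7 and 42.7 FPKM in cKO and WT naive cells. The largest difference in that list was that of Gbp2, at 0.53 ± 0.13 (SE, limma adjusted p = 0.218). The median of that list was 0.23 on the log2 scale, against 0.013 over all genes.

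**Figure D4:**
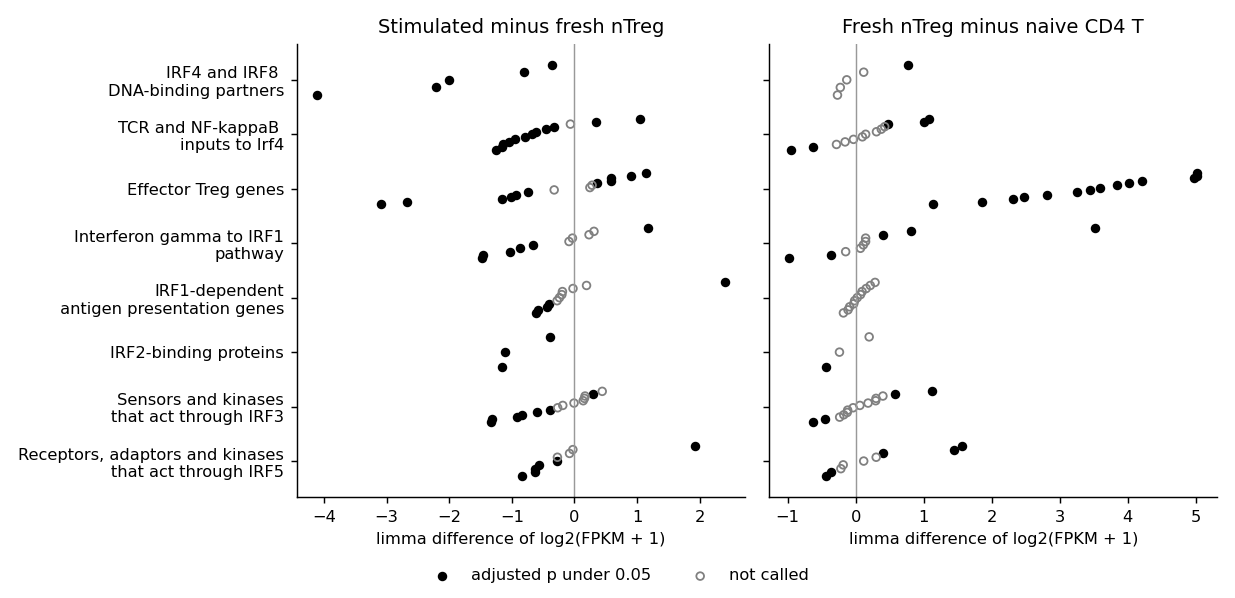
limma differences of log2(FPKM + 1) for the tested genes of 8 lists around the IRF family, stimulated minus fresh nTregs on the left and fresh nTregs minus naive cells on the right; each point is a gene, filled where the adjusted p was under 0.05. The 5 tested partners of IRF4 and IRF8 lie left of 0 in the left panel (to -4.11 for Junb), and the 14 effector Treg genes lie right of 0 in the right panel.

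Irf5 and Irf8 are best known from B and myeloid cells, so markers of those cells were read in each library. The 12 B cell markers summed to 12.4 and 12.7 FPKM in cKO and WT stimulated nTregs, 42.2 and 51.1 FPKM in cKO and WT fresh nTregs, and 8.01 and 8.93 FPKM in cKO and WT naive cells, mostly Cd74 and Cd79b. The defining B cell genes Cd79a, Ms4a1 and Pax5 summed to 0.718 and 1.13 FPKM in cKO and WT stimulated nTregs, 0.917 and 0.887 FPKM in cKO and WT fresh nTregs, and 1.33 and 0.853 FPKM in cKO and WT naive cells. Pax5 was listed at 0 in 5 of 6 libraries. Of the 12, 4 were tested, and 3 were called higher in fresh nTregs than in naive cells, by 2.94 (Cd79b), 2.49 (Cd74) and 1.28 (Cd22), the comparison in which Irf5 was higher. The same 3 were called lower in stimulated than in fresh nTregs, where Irf5 did not pass. The 17 myeloid and dendritic markers summed to 63.7 and 47.4 FPKM in cKO and WT stimulated nTregs, 58.5 and 56.2 FPKM in cKO and WT fresh nTregs, and 37.0 and 41.2 FPKM in cKO and WT naive cells, of which Cst3 was the larger part. The 5 defining genes (Lyz2, Csf1r, Itgax, Clec9a and Siglech) summed to 1.31 and 0.643 FPKM in cKO and WT stimulated nTregs, 1.39 and 4.45 FPKM in cKO and WT fresh nTregs, and 0.429 and 3.05 FPKM in cKO and WT naive cells. Clec9a and Siglech, of the dendritic lineages, were listed at 0 in the fresh and naive libraries, where more genes were listed at 0 in general. In cKO and WT stimulated nTregs Clec9a was 0.149 and 0.241 FPKM, and Siglech 0.0929 and 0.181 FPKM. Of the 17, 6 were tested, and Cd68 was called higher in stimulated nTregs, at 4.04 and 3.97 FPKM in cKO and WT stimulated nTregs, against 2.86 and 2.41 FPKM in cKO and WT fresh nTregs (0.46, limma adjusted p = 0.0257). With equal FPKM sums 3 of 5 tested were called higher in stimulated nTregs and 0 lower, where 59.1% of all genes were called higher. Cst3 was among these 3, at 0.45 (limma adjusted p = 0.00529). Mpeg1 was 2.08 and 0.675 FPKM in cKO and WT stimulated nTregs, against 1.03 and 0.498 FPKM in cKO and WT fresh nTregs, and did not pass. S100a8, a neutrophil and monocyte gene, was 1.92 and 0.614 FPKM in cKO and WT stimulated nTregs and listed at 0 in the 4 other libraries. S100a9 (0.901 FPKM in cKO and 0 in WT stimulated nTregs) and Cd14 (0.0782 and 0.202 FPKM) were likewise listed at 0 in the 4 other libraries. Lyz2, Csf1r, Itgam, Tyrobp and Adgre1 were lower in stimulated than in fresh nTregs in both genotypes. Cst3 was called higher (0.67) and Itgam lower (-0.65) in fresh nTregs than in naive cells. The part of B cells and myeloid cells in the Irf5 and Irf8 values was not tested. The 9 NK and CD8 T cell markers summed to 73.2 FPKM in cKO and 27.6 FPKM in WT stimulated nTregs, 39.2 and 27.4 FPKM in cKO and WT fresh nTregs, and 31.7 and 43.8 FPKM in cKO and WT naive cells, and 63.7 of the 73.2 FPKM was Nkg7. Of 7 tested, 0 were called higher and 2 lower in stimulated than in fresh nTregs (1 and 1 with equal FPKM sums). In fresh nTregs relative to naive cells 2 were higher and 3 lower (2 and 2 with equal FPKM sums). Prf1 was 1.70 and 1.42 FPKM in cKO and WT stimulated nTregs, against 9.49 and 11.6 FPKM in cKO and WT naive cells. Eomes (1.11 and 0.415 FPKM) and Klrd1 (0.600 and 0.194 FPKM) were also higher in cKO than in WT stimulated nTregs, as were Gzma and Cd8b1. Cd8a, Ncr1 and Klrb1c were lower in cKO there, at no more than 0.362 FPKM. The cKO stimulated library is also the one in which Irf8 was highest and Irf2 low, and the part of NK and CD8 T cells in those values was not tested.

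**Figure D5:**
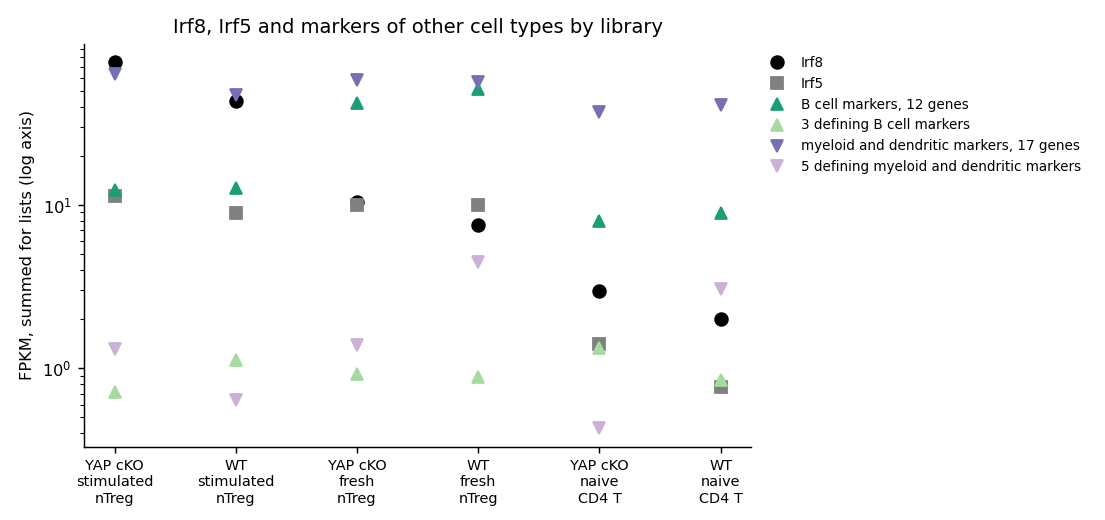
FPKM of Irf8 and Irf5 and summed FPKM of marker lists for B cells and for myeloid and dendritic cells in each library, on a log axis; each point is 1 library. In stimulated nTregs Irf8 is at 43.1 to 74.7 FPKM, the 17 myeloid and dendritic markers at 47.4 to 63.7 FPKM and the defining markers of both kinds at 0.643 to 1.31 FPKM. The 12 B cell markers are highest in fresh nTregs.

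Genes most like 4 members in pattern were taken by Pearson r of log2(FPKM + 1) over the 6 libraries, among genes of like span. The points share libraries and populations, so any gene with the same 3 population levels scores high, and the values are descriptive. Nearest to Irf8 were Fam20a (r = 0.999), Tpx2 (0.999) and Perp (0.998). Nearest to Irf4 were Fabp5 (r = 0.998), Rnf149 (0.997) and Uhrf1 (0.997). Nearest to Irf5 were Il10ra (r = 1.00), Cd200 (0.996) and Zdhhc2 (0.996), and nearest to Irf1 were Psmb10 (0.998), Lck (0.998) and Csk (0.995). Il10ra, which encodes the IL-10 receptor chain, was 40.9 and 38.6 FPKM in cKO and WT fresh nTregs, against 9.07 and 6.27 FPKM in cKO and WT naive cells. Between members, Irf4 and Irf8 had r = 0.99 and Irf1 and Irf8 r = -0.86. Irf2 and Irf3 spanned under 1 log2 unit and were not matched.

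Irf7 and Irf9 were called lower in stimulated than in fresh nTregs, though with equal FPKM sums Irf9 had a difference of 0.087 and was not called. Irf7, the interferon-amplifying member, was 14.9 and 11.1 FPKM in cKO and WT stimulated nTregs, 29.4 and 36.1 FPKM in cKO and WT fresh nTregs, and 58.0 and 48.6 FPKM in cKO and WT naive cells, with a stimulated minus fresh difference of -1.28 (limma adjusted p = 0.00184). Irf9, the DNA-binding subunit of the ISGF3 complex, had -0.48 (limma adjusted p = 0.00402). Irf1 shared that direction, and Irf4 and Irf8 had the opposite one.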

How the data were processed

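Total RNA of 6 sorted mouse T cell libraries was measured. Per the labels' protocols, stranded ribosome-depleted libraries were made from 322 ng of RNA with 12 PCR cycles. Per the submitters' processing notes, the authors used FastQC, TopHat, Cuffdiff and Cuffnorm on mm10, and no version is stated. The deposited table gives FPKM per RefSeq transcript, scaled by the authors across libraries, and holds no counts. Each group has 1 library.

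The table held 32860 rows for 32547 transcripts; 165 transcripts were repeated with the same values and entered once. FPKM was summed per gene. limma 3.58.1 (R 4.3.3) was fitted with an intensity trend to log2(FPKM + 1), which understates folds of low genes, for 11224 genes with at least 1 FPKM in at least 2 libraries. The additive model of population and genotype has 2 residual and 4.02 prior degrees of freedom. Calls used a Benjamini-Hochberg adjusted p under 0.05 over all genes tested. The fit was run on simulated data with known shifts, which checks the size of the estimates and not the error rate of calls in these libraries. All 6 members passed the filter on low values.

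Fragments were estimated from the steps between low values (0.003 to 0.05 FPKM); 71.8% to 77.8% of these lay within 5% of whole fragments, so intervals are approximate. Named genes are all members, the called list genes with the largest change in each direction, direct partners, kinases and receptors, overlapping neighbours and, for likeness, the 3 genes of highest r with a span of 0.67 to 1.5 times that of the member. Members, lists and tests were chosen with earlier results of these data known. Alternatives changed the pseudocount, filter, scaling, trend, model terms, transcripts used and libraries left out. Tlr8, Tlr9 and list genes below the minimum were not tested. Some genes of these lists are not reported here by name.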

Additional observations from a re-analysis of the deposited data

How the results depend on the processing

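Of 258 member differences recomputed under the alternatives, 238 kept direction and side of the threshold, 10 turned in sign, 9 gained a call and 1 lost it. Irf4 and Irf8 in both population comparisons and Irf5 between fresh nTregs and naive cells kept their calls in all alternatives; Irf8 stimulated minus fresh ranged over 2.36 to 3.11 and Irf4 over 1.13 to 1.78. The number of members called between fresh nTregs and naive cells was 3 to 5 when 1 library was left out. In genotype 0 members were called in any alternative, with 3 at an unadjusted p under 0.05 in limma, and adjusted p ranged over 0.113 to 0.558 for Irf8. No difference that changed sign was called on either side. With equal FPKM sums Irf2 was 0.21 stimulated minus fresh and Irf3 0.060 fresh minus naive; with the most abundant transcript Irf5 was -0.093 stimulated minus fresh. With 1 library left out, Irf2 ranged over -0.70 to 0.028, Irf3 over -0.039 to 0.24 and Irf5 over -0.17 to 0.20 stimulated minus fresh, Irf3 over -0.27 to 0.0049 fresh minus naive, and Irf2 in genotype over -0.28 to 0.12.

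Equal FPKM sums moved the median of all genes to 0.47 stimulated minus fresh and 0.15 fresh minus naive, and the split of higher and lower calls to 6724 and 1022 (as deposited 2527 and 3061) and to 2767 and 667 (as deposited 1853 and 1655). With median-of-ratios scaling these medians were 0.016 and 0.028, and the splits 2890 and 2662 stimulated minus fresh and 2062 and 1314 fresh minus naive. The cause of the lower sums in stimulated nTregs was not tested. Without a filter the stimulated split was 3946 and 2583. Genotype calls over all genes were 42 as reported, 4 without a filter, 12 with the most abundant transcript, 89 in the 4 nTreg libraries alone and 16 to 105 with 1 library left out. Fresh minus naive calls were 2183 without a filter and 1286 to 4788 with 1 library left out (3508 as reported), and stimulated minus fresh calls 2903 to 5408 (5588). No paired analysis was possible because each group holds 1 library, so no replicate number pairs samples; the genotype term sets the population comparisons within genotypes, and without it 5077 and 2983 genes were called stimulated minus fresh and fresh minus naive. Depth limits Irf5 and Irf8 in naive cells most, where 12.5 to 73.5 estimated fragments stand behind a value.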
